A study of Mus musculus with 12 samples.

Results

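Tumour necrosis factor (Tnf) and its relatives form a superfamily of trimeric, mostly membrane-anchored ligands, and their receptors form a superfamily of their own. The genes described here were chosen by symbol: every row whose mouse symbol is Tnfsf or Tnfrsf followed by a number, together with Tnf, Lta, Ltb, Ltbr, Fas, Fasl, Cd40, Cd40lg, Cd27, Cd70, Eda2r and Edar. This rule took 44 of 46078 rows, made up of 17 ligands, 26 receptors and the antisense RNA Tnfsf13os. Ventrolateral white matter of the spinal cord of C57Bl6 mice was collected by laser capture and sequenced. Young mice (6 weeks) and middle-aged mice (8 months) were either naïve, with no injection, or injured, which here means taken 72 h (day 3) after an injection of lysolecithin, a detergent-like lipid that removes myelin. No group received an injection without lysolecithin, so that the needle and the lysolecithin cannot be told apart. The labels give the ages only as words, and the numbers come from the study's methods for this experiment. Each of the 4 groups had 3 pools of 5 mice each, so that the p-values measure the spread between pools and differences between mice inside a pool were not seen.

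The receptors fall into 3 kinds. Those with a death domain, such as Tnfrsf1a and Fas, can recruit adaptors that lead to caspases or to the transcription factor NF-kappaB, whereas those without a death domain, such as Tnfrsf1b, bind TRAF proteins and act mainly through NF-kappaB and kinases. Decoy receptors bind a ligand without passing on the signal. In mouse models of demyelination, Tnf has been tied to inflammation and loss of myelin through Tnfrsf1a and to repair through Tnfrsf1b, while microglia and macrophages are a main source of Tnf in the injured central nervous system.

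Totals ranged from 9834447 to 12807437 counts per pool. Log2 values of pools of the same group correlated across genes with r between 0.937 and 0.988. Markers of the labelled tissue were present: the 8 oligodendrocyte genes listed summed to between 54361 and 105418 CPM, counts per 1000000 scaled counts, in naïve pools. They summed to between 8438 and 21715 CPM in injured pools, and 8 of 8 were lower at both ages. The 8 pan-myeloid genes listed, which mark microglia and macrophages alike, summed to between 99.9 and 225 CPM in naïve pools and to between 1959 and 2593 CPM in injured pools, and 8 of 8 were higher at both ages. Every difference below was measured in tissue whose cell makeup moved in this way. In such bulk samples, more cells of a type cannot be told apart from more RNA per cell, and the part of the cell makeup in the results below was not tested.

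Of the 44 genes, 27 had enough counts to be tested (7 ligands, 19 receptors and Tnfsf13os). In young mice, 22 of the 27 were higher after injury, 1 was lower and 4 did not pass the adjusted threshold of 0.05. Among all 15866 genes tested, 28.3% were higher and 26.3% lower. In middle-aged mice, 23 were higher, 2 were lower and 2 did not pass, against 29.2% higher and 29.3% lower among all genes. The median log2 fold change of the 27 was 2.24 in the young and 2.70 in the middle-aged, against 0.00 and -0.03 for all genes tested. These medians and counts are a description only, since 9 of the 27 reached the filter on low counts solely through injured pools, where they had to be higher. Of the 18 that reached it with naïve pools as well, 13 were higher in young and 14 in middle-aged mice, while 1 and 2 were lower. A set of 22 was higher at both ages, a count for which no share of all genes was taken, and Tnfrsf13c was lower at both. The plot of injury effects by gene shows the spread of these changes.

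**Figure D1:**
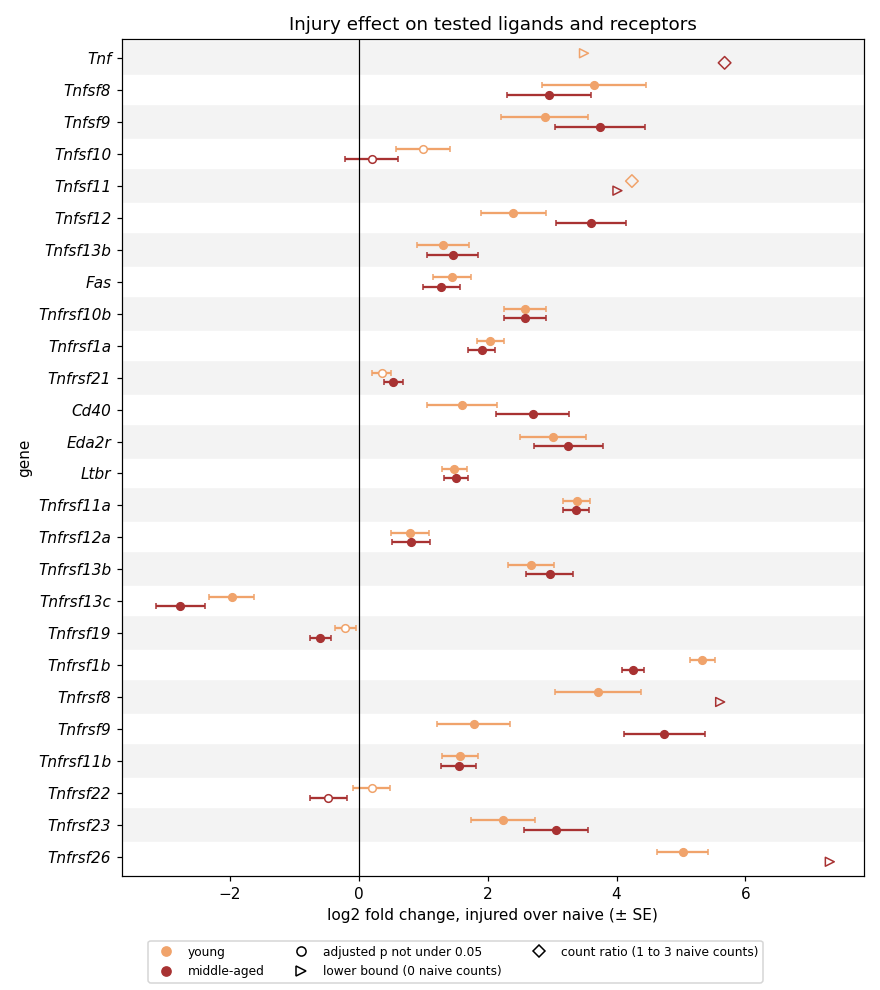
Log2 fold change of injured over naïve pools (x axis, ± SE from edgeR) for the 26 tested ligands and receptors (y axis) in young and middle-aged mice; open circles did not pass the adjusted threshold, open triangles are lower bounds for genes with 0 naïve counts and open diamonds are ratios of summed counts with 1 to 3 naïve counts. Most points lie to the right of 0, Tnfrsf1b lies at 5.33 and 4.26, and Tnfrsf13c lies to the left at both ages.

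The other 17 genes never exceeded 15 counts in a pool and were not tested. They included 10 ligands: Lta, Ltb, Fasl, Cd40lg, Cd70, Tnfsf4, Tnfsf13, Tnfsf14, Tnfsf15 and Tnfsf18. The 7 receptors were Cd27, Edar, Tnfrsf4, Tnfrsf14, Tnfrsf17, Tnfrsf18 and Tnfrsf25. Many of these are best known from T and B cells. The 9 T and NK cell markers summed to at most 9.58 CPM in any pool and the 6 B and plasma cell markers to at most 3.45 CPM. Of the 9, 2 were tested: Cd4 was higher at both ages and Trac did not pass. Of the 6, 1 was tested, Cd79b, which was higher at both ages. The part of these cells in the low counts was not tested. The highest counts among the untested genes were 15 for Tnfsf15, 14 for Tnfsf14 and 14 for Tnfsf18. With no filter on low counts, 3 of the 17 were called higher in young mice, against 17.1% of all genes: Tnfsf18 (adjusted p = 0.000656), Tnfsf15 (adjusted p = 0.0018) and Tnfsf13 (adjusted p = 0.0167). In middle-aged mice 4 of them were called higher, against 17.7%: Tnfsf14 (adjusted p = 0.00273), Tnfsf4 (adjusted p = 0.034), Tnfrsf14 (adjusted p = 0.0467) and Tnfsf18 (adjusted p = 0.047). Both numbers of called genes are near the shares of all genes, so that nothing is read from them. These genes are named after their values were seen. Tnfsf18 had 30 counts over the young injured pools and 0 over the young naïve pools, at least 7.87-fold higher, and in middle-aged mice its ratio of summed counts was 8.08 (exact 95% interval 1.93 to 71.8). A count of 0 in a pool allows up to 3 counts, or between 0.234 and 0.305 CPM. These limits cover counting error only, since the reads were amplified without molecular identifiers.

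Tnf itself was scarce. It had 0 counts in each of the 3 young naïve pools and 14, 12 and 17 counts in the young injured pools, or 1.03, 0.93 and 1.28 CPM. In middle-aged mice it had 0, 1 and 0 counts in naïve pools and 28, 12 and 17 counts in injured pools, or 2.32, 0.958 and 1.47 CPM. Every injured pool was thus above every naïve pool. Summed over the group and set against a limit of 3 counts, Tnf was at least 11.3-fold higher in young injured mice (adjusted p = 0.0003). In middle-aged mice the ratio of summed counts was 51.2, with an exact 95% interval from 8.82 to 2.06e+03 (adjusted p = 0.000218). The difference of these injury effects between ages did not pass (adjusted p = 0.799).

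Both receptors of Tnf were readily detected. Tnfrsf1b, the receptor without a death domain, was measured at 1.91, 1.63 and 1.61 CPM in young naïve pools and at 66.9, 71.2 and 71.5 CPM in young injured pools. In middle-aged mice, Tnfrsf1b was measured at 3.65, 5.04 and 4.88 CPM in naïve pools and at 96.6, 90.6 and 73 CPM in injured pools. The 4 groups did not overlap, and their order from lowest to highest was young naïve, then middle-aged naïve, then young injured, then middle-aged injured. The age difference among injured pools did not pass in edgeR (log2 0.31 ± 0.14, adjusted p = 0.49). Tnfrsf1b was 40.3-fold higher after injury in young mice (log2 5.33 ± 0.19 SE, adjusted p = 7.05e-11) and 19.1-fold in the middle-aged (log2 4.26 ± 0.17, adjusted p = 1.74e-10). The log2 effect was 1.07 ± 0.25 smaller in middle-aged mice, a difference that did not pass in edgeR (adjusted p = 0.125) and passed in DESeq2 (adjusted p = 0.0406). Across all genes, 0.139% had a called difference of injury effects in edgeR.

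Tnfrsf1a, the death-domain receptor that binds soluble Tnf and is found on most cell types, was measured at 11.8, 19.9 and 15.2 CPM in young naïve pools and at 68.7, 61.5 and 62.8 CPM in young injured pools. In middle-aged mice it lay at 15.2, 25.1 and 15.8 CPM in naïve pools and at 72.5, 73.6 and 63.7 CPM in injured pools. Naïve and injured pools did not overlap, whereas pools of the 2 ages did within each condition. The increase was 4.12-fold in young mice (log2 2.04 ± 0.21, adjusted p = 1.43e-06) and 3.75-fold in the middle-aged (log2 1.91 ± 0.21, adjusted p = 2.2e-06).

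Since both receptors rose, their ratio was taken within each pool, where library scaling cancels. Tnfrsf1b counts divided by Tnfrsf1a counts gave 0.117 ± 0.0407 (SD, n = 3 pools) in young naïve mice, 0.25 ± 0.0542 in middle-aged naïve mice, 1.09 ± 0.101 in young injured mice and 1.24 ± 0.0943 in middle-aged injured mice. The lowest injured pool had a ratio of 0.974 and the highest naïve pool 0.308. These counts are not divided by gene length, so that a ratio above 1 does not show more Tnfrsf1b than Tnfrsf1a. Per kilobase of exon, mean Tnfrsf1a was above mean Tnfrsf1b in young injured pools (24.8 against 18.3 CPM per kb). The same held in middle-aged injured pools (27 against 22.7 CPM per kb), where the pools of the 2 genes overlapped. On the log2 scale the ratio was 2.80 higher after injury over both ages, with a 2-sided exact permutation p of 0.005 when pools were rearranged within each age (400 arrangements, the smallest p they allow). Within young mice the difference was 3.28 and within middle-aged mice 2.33, each with an exact permutation p of 0.1, the smallest that 3 pools against 3 can give. Among naïve pools the log2 ratio was 1.13 higher in middle-aged mice (exact permutation p = 0.1), and among injured pools it was 0.18 higher (exact permutation p = 0.2).

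**Figure D2:**
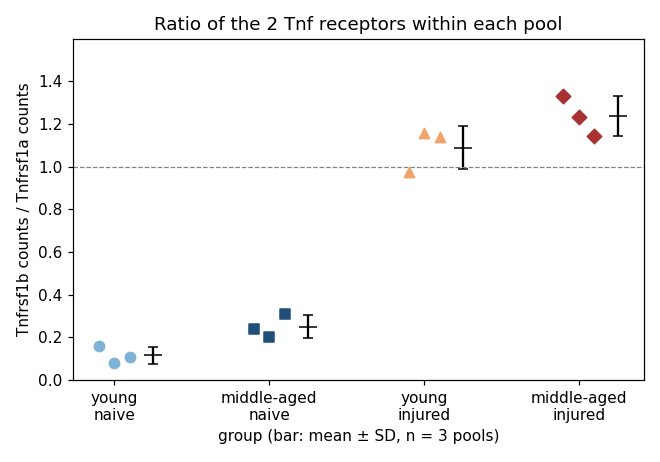
Tnfrsf1b counts divided by Tnfrsf1a counts (y axis, linear from 0) in each of the 3 pools of the 4 groups (x axis), with the mean ± SD as a black bar beside the points. All 6 naïve pools lie at or below 0.308 and all 6 injured pools at or above 0.974. Counts are not divided by gene length, so that the dashed line at 1 does not mark equal levels.

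The promoters of Tnf, Tnfrsf1b and Tnfrsf8 are shown for the reader to see the sequence upstream of the namesake ligand, of its strongly raised receptor, and of a neighbouring raised receptor gene on the same chromosome that held matches. The windows are the 250 bases before the RefSeq start site on GRCm38.p6, read 5′ to 3′ on the gene's strand, and overlap no annotated exon. They were picked after a motif search. Capitals mark matches to the kappaB consensus, which NF-kappaB proteins bind, to the AP-1 letters TGANTCA, or to the PU.1 letters GAGGAAGT, each searched on both strands. The Tnf window lies at chr17:35202008-35202257, the Tnfrsf1b window at chr4:145246871-145247120 and the Tnfrsf8 window at chr4:145315165-145315414, all on the minus strand.
Tnf: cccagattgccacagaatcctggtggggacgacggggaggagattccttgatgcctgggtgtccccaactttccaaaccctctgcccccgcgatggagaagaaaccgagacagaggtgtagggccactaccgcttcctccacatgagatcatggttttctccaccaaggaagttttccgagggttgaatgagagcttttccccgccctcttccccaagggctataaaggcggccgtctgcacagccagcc
Tnfrsf1b: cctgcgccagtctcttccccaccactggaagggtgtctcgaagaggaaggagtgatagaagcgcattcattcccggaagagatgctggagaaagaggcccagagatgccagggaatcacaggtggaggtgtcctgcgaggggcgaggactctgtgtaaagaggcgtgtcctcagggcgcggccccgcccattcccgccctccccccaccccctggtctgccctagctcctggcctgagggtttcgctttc
Tnfrsf8: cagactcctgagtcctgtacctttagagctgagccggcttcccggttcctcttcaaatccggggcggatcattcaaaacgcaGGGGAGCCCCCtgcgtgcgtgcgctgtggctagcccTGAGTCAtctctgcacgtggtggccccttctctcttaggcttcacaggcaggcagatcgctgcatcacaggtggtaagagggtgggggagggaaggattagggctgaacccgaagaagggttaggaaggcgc
In the Tnfrsf8 window, 2 overlapping kappaB matches begin at positions -168 and -167 from the start site and an AP-1 match begins at -132. No match to these letters was found in the Tnf and Tnfrsf1b windows, which says only that these letters are not in these windows. Of the 44 genes, 33 had a promoter in the RefSeq table, with 37 start sites. The kappaB consensus was found in 4 of the 37 (10.8%, in Ltb, Tnfrsf25, Tnfrsf8 and Tnfrsf9), against 7.25% of all 32851 promoters in the table. AP-1 was found in 6 (16.2%, in Fas, Tnfrsf8, Tnfrsf9, Tnfsf13, Tnfsf13b and Tnfsf14), against 6.75%, and PU.1 in 1 (2.7%, in Tnfsf18), against 2.44%. These matches are a description of letters and not of binding.

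Besides Tnf, 5 tested ligands were higher at both ages: Tnfsf8, Tnfsf9, Tnfsf11, Tnfsf12 and Tnfsf13b. Tnf, Tnfsf9, Tnfsf11 and Tnfsf12 reached the filter on low counts only through injured pools, so that this count is a description. Of all genes tested, 28.3% were higher after injury in the young and 29.2% in the middle-aged. The share higher at both ages was not taken. Tnfsf8 (CD30 ligand, a membrane protein of activated immune cells) was measured at 1.28, 0 and 0.215 CPM in young naïve pools, at 5.76, 0.63 and 0.96 CPM in middle-aged naïve pools, at 6.02, 7.75 and 5.72 CPM in young injured pools and at 17.2, 17 and 22.7 CPM in middle-aged injured pools. The first middle-aged naïve pool stood above the other naïve pools and just above the lowest young injured pool. After injury Tnfsf8 was higher by log2 3.65 ± 0.80 in young mice (adjusted p = 0.0014) and by 2.95 ± 0.65 in the middle-aged (adjusted p = 0.00125). Middle-aged injured pools did not overlap young injured pools, with a log2 difference of 1.54 ± 0.59 that did not pass (adjusted p = 0.328) and that passed when only the 6 injured pools were fitted (adjusted p = 0.00098).

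Tnfsf9, the ligand of the costimulatory receptor Tnfrsf9, was measured at 0.729, 0.544 and 1.83 CPM in young naïve pools, at 0.48, 1.99 and 0 CPM in middle-aged naïve pools, at 9.98, 8.06 and 4.52 CPM in young injured pools and at 11.4, 12.8 and 7.25 CPM in middle-aged injured pools. Naïve and injured pools did not overlap, although the injured pools of each group were spread widely. On the log2 scale the change was 2.89 ± 0.68 in young mice (adjusted p = 0.00228) and 3.74 ± 0.70 in the middle-aged (adjusted p = 0.000362). Of its 31-base stretches, 12.9% are also found in the opposite-strand gene Gm11110, so that some of its reads could be counted elsewhere. Tnfsf13b (BAFF), a survival factor for B cells that myeloid cells make, was measured at 1.82, 2.27 and 1.29 CPM in young naïve pools, at 2.69, 0.735 and 2.48 CPM in middle-aged naïve pools, at 4.18, 4.57 and 4.67 CPM in young injured pools and at 4.98, 6.95 and 4.49 CPM in middle-aged injured pools. All 6 injured pools exceeded all 6 naïve pools. The log2 fold change of Tnfsf13b was 1.31 ± 0.40 in young mice (adjusted p = 0.0121) and 1.46 ± 0.39 in the middle-aged (adjusted p = 0.00539).

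Tnfsf11 (RANKL), the ligand that drives osteoclast formation in bone, had no more than 1 count summed over either naïve group, against 24 counts in the 3 young and 54 in the 3 middle-aged injured pools. Its ratio of summed counts was 18.9 in young mice (exact 95% interval 3.08 to 776), and in middle-aged mice it was at least 16.2-fold higher. Tnfsf12 (TWEAK) was called higher at both ages, with log2 fold changes of 2.40 ± 0.51 and 3.61 ± 0.54. Its reads are uncertain, since 47.4% of its 31-base stretches are shared with the read-through gene Tnfsfm13. Tnfsf10 (TRAIL), which can trigger cell death, ranged from 1.36 to 5.28 CPM in naïve pools and from 3.91 to 6.36 CPM in injured pools, and did not pass at either age (adjusted p = 0.0553 and 0.698). In young mice, where its log2 fold change was above 0, it passed in DESeq2 (adjusted p = 0.0372), when only the 6 young pools were fitted (0.017), with library totals as the scale (0.027) and with no filter on low counts (0.0278). It also passed there without young naïve pool 2 (adjusted p = 0.0293), middle-aged naïve pool 1 (0.0489) or middle-aged naïve pool 2 (0.00672).

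**Figure D3:**
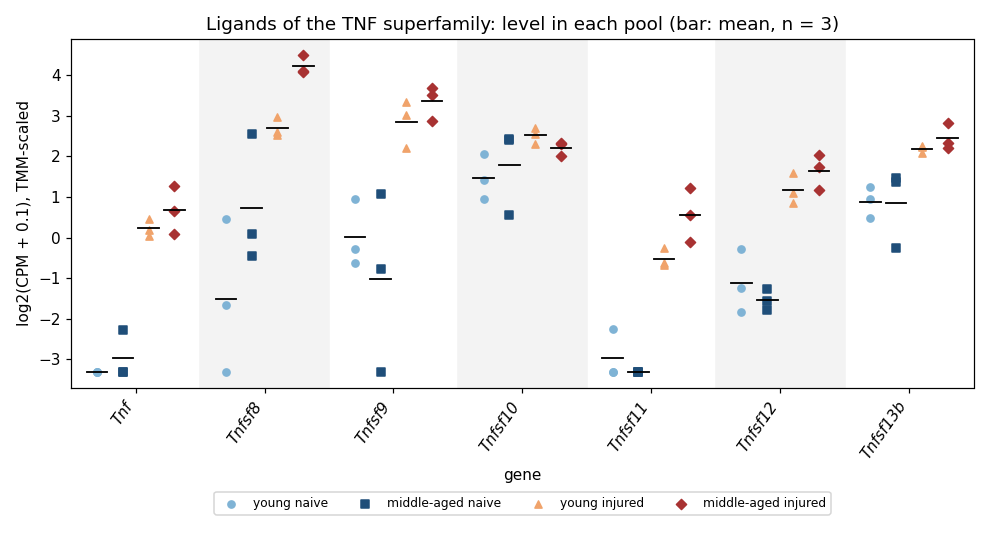
Level of each of the 7 tested ligands (x axis) as log2 of TMM-scaled CPM plus 0.1 (y axis), with a point per pool and a bar at the mean of the 3 pools in each of the 4 groups. Tnf had counts in only 1 of 6 naïve pools and in 6 of 6 injured pools, and naïve and injured pools overlap for Tnfsf10.

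Tnfsf13os, an RNA transcribed antisense to Tnfsf13, was measured at 0.547, 1.72 and 1.61 CPM in young naïve pools, at 2.3, 5.67 and 3.36 CPM in middle-aged naïve pools, at 6.02, 7.83 and 4.89 CPM in young injured pools and at 11.1, 11.6 and 8.29 CPM in middle-aged injured pools. Within each age the injured pools lay above the naïve pools, and within each condition the middle-aged pools lay above the young pools. The age difference did not pass in edgeR among naïve mice (adjusted p = 0.0593) or among injured mice (log2 0.73 ± 0.35, adjusted p = 0.544). It was higher after injury by log2 2.27 ± 0.41 in young mice (adjusted p = 0.000298) and by 1.46 ± 0.37 in the middle-aged (adjusted p = 0.00334). Whether the authors counted by strand is not stated, and 221 of its exonic bases lie opposite Tnfsf13, so that reads of these partners cannot be told apart where they overlap. Tnfsf13 itself had at most 6 counts in a pool.

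Of the other death-domain receptors, Fas, which triggers apoptosis when bound by Fas ligand, was measured at 4.37, 3.9 and 1.72 CPM in young naïve pools, at 6.34, 4.72 and 3.84 CPM in middle-aged naïve pools, at 8.59, 10.1 and 8.96 CPM in young injured pools and at 11.5, 10.7 and 13.9 CPM in middle-aged injured pools. Injured pools lay above naïve pools throughout. The log2 change was 1.45 ± 0.30 in young mice (adjusted p = 0.000851) and 1.28 ± 0.29 in the middle-aged (adjusted p = 0.00158). Its ligand, Fasl, had no more than 6 counts in any pool.

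Tnfrsf10b, the mouse TRAIL receptor, was measured at 0.82, 1.36 and 0.753 CPM in young naïve pools, at 0.864, 0.735 and 1.12 CPM in middle-aged naïve pools, at 5.58, 5.89 and 6.33 CPM in young injured pools and at 6.56, 4.71 and 5.27 CPM in middle-aged injured pools. All injured pools lay above all naïve pools, and the pools of the 2 ages overlapped in both conditions. The log2 changes were 2.58 ± 0.32 in young mice (adjusted p = 1.04e-05) and 2.58 ± 0.33 in the middle-aged (adjusted p = 9.96e-06). Some 11.4% of its 31-base stretches occur in other genes, mostly Gm15574.

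Tnfrsf21 (DR6), a death receptor of neurons and oligodendrocyte lineage cells, was already at a high level in naïve tissue. It was measured at 108, 98.4 and 90.9 CPM in young naïve pools, at 65.2, 85.3 and 69.5 CPM in middle-aged naïve pools, at 133, 111 and 136 CPM in young injured pools and at 109, 122 and 88 CPM in middle-aged injured pools. The injured pools stood only a little above the naïve pools of the same age. On the log2 scale the change was 0.53 ± 0.15 in middle-aged mice (adjusted p = 0.00615). In young mice it was 0.36 ± 0.15 (adjusted p = 0.0515), which passed under several alternatives, DESeq2 among them (adjusted p = 0.0395). The difference between the ages was 0.18 ± 0.21 (adjusted p = 0.843).

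Of the 11 tested TRAF-binding receptors, 9 were higher, 1 was lower and 1 did not pass in young mice. In middle-aged mice 9 were higher and 2 lower. Among all genes tested, 28.3% were higher and 26.3% lower in young mice, and 29.2% and 29.3% in middle-aged mice. Cd40, Tnfrsf8 and Tnfrsf9 reached the filter on low counts only through injured pools, so that these numbers are a description. Tnfrsf11a (RANK), the receptor of Tnfsf11, was measured at 4.56, 4.08 and 5.7 CPM in young naïve pools, at 4.42, 6.93 and 5.12 CPM in middle-aged naïve pools, at 48.2, 45.3 and 55.9 CPM in young injured pools and at 59.9, 63 and 46.8 CPM in middle-aged injured pools. The lowest injured pool stood far above the highest naïve pool. The increase was 10.4-fold in young mice (log2 3.38 ± 0.21, adjusted p = 8.81e-09) and 10.3-fold in the middle-aged (log2 3.37 ± 0.21, adjusted p = 7.05e-09).

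Tnfrsf13b (TACI), which binds BAFF and its relative Tnfsf13 and is best known from B cells, was measured at 1.28, 3.99 and 3.76 CPM in young naïve pools, at 2.59, 1.68 and 4.08 CPM in middle-aged naïve pools, at 19.6, 21.5 and 16.2 CPM in young injured pools and at 25.8, 22.8 and 17.8 CPM in middle-aged injured pools. The groups by condition did not overlap. The log2 change was 2.67 ± 0.36 in young mice (adjusted p = 2.04e-05) and 2.96 ± 0.36 in the middle-aged (adjusted p = 6.76e-06). In contrast, Tnfrsf13c, the BAFF receptor proper, ranged from 2.88 to 5.48 CPM in naïve pools and from 0.319 to 1.39 CPM in injured pools, with log2 fold changes of -1.97 ± 0.34 (adjusted p = 0.000216) and -2.77 ± 0.38 (adjusted p = 2.41e-05). It is singled out here after its values were seen, since its mean level lay just under the limit for giving every pool. The 6 B and plasma cell markers summed to between 0 and 1.94 CPM in naïve pools and to between 1.92 and 3.45 CPM in injured pools. Of these 6 markers 1 was tested, and the part of B cells in the Tnfrsf13c result was not tested. Tnfrsf17, the remaining receptor of this group, had at most 6 counts.

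Cd40, a costimulatory receptor of B cells and myeloid cells, was measured at 2.19, 0.816 and 0.538 CPM in young naïve pools, at 0.48, 0.42 and 1.44 CPM in middle-aged naïve pools, at 2.72, 5.19 and 3.01 CPM in young injured pools and at 6.81, 5.75 and 3.28 CPM in middle-aged injured pools. In young mice the gap between the highest naïve and the lowest injured pool was small. On the log2 scale the change was 1.60 ± 0.54 in young mice (adjusted p = 0.0222) and 2.70 ± 0.56 in the middle-aged (adjusted p = 0.000893). The call in young mice was lost without young naïve pool 2 (adjusted p = 0.0841), young naïve pool 3 (0.0797) or young injured pool 2 (0.0989).

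Eda2r, a receptor of the ectodysplasin branch, was measured at 2.46, 1.45 and 0.538 CPM in young naïve pools, at 2.4, 0.315 and 0.64 CPM in middle-aged naïve pools, at 11.7, 9.84 and 15.2 CPM in young injured pools and at 7.47, 13 and 11.7 CPM in middle-aged injured pools. Injured and naïve pools were well apart. The log2 change was 3.01 ± 0.52 in young mice (adjusted p = 0.000197) and 3.25 ± 0.54 in the middle-aged (adjusted p = 0.000126). Ltbr, the lymphotoxin beta receptor of stromal and myeloid cells, was measured at 6.83, 6.89 and 6.77 CPM in young naïve pools, at 7.2, 7.66 and 7.92 CPM in middle-aged naïve pools, at 18.8, 19.8 and 18.9 CPM in young injured pools and at 24, 24.7 and 16.2 CPM in middle-aged injured pools. The young pools were close together, and the third middle-aged injured pool was below the young injured pools. The log2 fold change of Ltbr was 1.49 ± 0.19 in young mice (adjusted p = 1.11e-05) and 1.51 ± 0.19 in the middle-aged (adjusted p = 7.73e-06). Its ligands Ltb and Tnfsf14 had at most 4 and 14 counts in a pool.

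Tnfrsf12a (Fn14), the receptor of TWEAK and a gene induced by injury in many tissues, was measured at 18.9, 17.6 and 8.49 CPM in young naïve pools, at 20.9, 45.5 and 23.7 CPM in middle-aged naïve pools, at 29.4, 24.1 and 24.9 CPM in young injured pools and at 51.6, 58.2 and 48 CPM in middle-aged injured pools. The second middle-aged naïve pool stood far above the other naïve pools. Middle-aged pools lay above young pools in both conditions. After injury Tnfrsf12a was higher by log2 0.79 ± 0.30 in young mice (adjusted p = 0.0356) and by 0.81 ± 0.29 in the middle-aged (adjusted p = 0.0262). Both calls lay near the threshold and were lost without any 1 of several pools. The call in young mice was lost without young naïve pool 3 (log2 0.52, adjusted p = 0.133). It was also lost without young injured pool 1 (log2 0.71, adjusted p = 0.102), 2 (0.86, 0.0512) or 3 (0.83, 0.0592). The call in middle-aged mice was lost without naïve pool 1 (log2 0.61, adjusted p = 0.0968) or 3 (0.67, 0.0943). It was also lost without injured pool 1 (log2 0.83, adjusted p = 0.052) or 2 (0.73, 0.0818).

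Tnfrsf19 (TROY), a receptor of neural progenitors and glia, was measured at 45.6, 46.9 and 45.9 CPM in young naïve pools, at 46.9, 39.2 and 53 CPM in middle-aged naïve pools, at 36.1, 47.7 and 35.8 CPM in young injured pools and at 30, 25.8 and 36.6 CPM in middle-aged injured pools. The middle-aged injured pools lay below the middle-aged naïve pools, whereas the second young injured pool lay above the young naïve pools. On the log2 scale the change was -0.59 ± 0.17 in middle-aged mice (adjusted p = 0.00711) and -0.21 ± 0.17 in young mice (adjusted p = 0.308). The difference between ages was -0.38 ± 0.24 (adjusted p = 0.652). At each age 5 of 6 astrocyte, 8 of 8 oligodendrocyte and 4 of 6 neuron markers were lower. Of the neuron markers, 1 was higher in middle-aged mice. Of 5 oligodendrocyte progenitor markers, 3 were lower and 2 higher at each age. The astrocyte marker total fell from between 10026 and 12286 CPM in naïve pools to between 3651 and 5790 CPM in injured pools. The part of these cells in the Tnfrsf19 result was not tested.

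Tnfrsf8 (CD30) and Tnfrsf9 (CD137), the receptors of Tnfsf8 and Tnfsf9, were near the limit of detection in naïve pools. Tnfrsf8 ranged from 0 to 0.544 CPM in naïve pools and from 2.64 to 5.01 CPM in injured pools, was higher by log2 3.71 ± 0.66 in young mice (adjusted p = 0.000433), and was at least 48.8-fold higher in middle-aged mice (adjusted p = 1.44e-05). Tnfrsf9 ranged from 0 to 0.753 CPM in naïve pools, from 0.904 to 2.79 CPM in young injured pools and from 5.35 to 6.39 CPM in middle-aged injured pools, with log2 fold changes of 1.78 ± 0.57 (adjusted p = 0.0161) and 4.74 ± 0.62 (adjusted p = 1.47e-05). The call for Tnfrsf9 in young mice was lost without young naïve pool 1 (adjusted p = 0.0527), young naïve pool 2 (0.064) or young injured pool 1 (0.0944).

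Of the decoy receptors, Tnfrsf11b (osteoprotegerin), which captures Tnfsf11, was measured at 3.1, 5.98 and 3.98 CPM in young naïve pools, at 7.01, 3.67 and 3.68 CPM in middle-aged naïve pools, at 12, 13.3 and 13.6 CPM in young injured pools and at 14.3, 13.3 and 14.5 CPM in middle-aged injured pools. Naïve and injured pools did not overlap. The log2 change was 1.57 ± 0.28 in young mice (adjusted p = 0.00027) and 1.55 ± 0.28 in the middle-aged (adjusted p = 0.000246). The ligand, signalling receptor and decoy of the Tnfsf11 axis were each called higher at both ages. This is a description only, since Tnfsf11 reached the filter on low counts solely through injured pools.

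Tnfrsf22, Tnfrsf23 and Tnfrsf26 lie side by side on chromosome 7, and the first pair are decoys for TRAIL in mice. Tnfrsf26 was listed with the decoys here, and whether it acts as a decoy was not tested. Tnfrsf23 was measured at 1.64, 0.997 and 0.215 CPM in young naïve pools, at 0.768, 1.57 and 0.4 CPM in middle-aged naïve pools, at 4.48, 4.03 and 5.35 CPM in young injured pools and at 7.14, 8.14 and 7.17 CPM in middle-aged injured pools. Injured pools lay above naïve pools, with log2 fold changes of 2.24 ± 0.50 (adjusted p = 0.0015) and 3.06 ± 0.50 (adjusted p = 0.000112). Its neighbour Tnfrsf22 ranged from 3.63 to 5.6 CPM in naïve pools and from 2.4 to 4.89 CPM in injured pools and did not pass (adjusted p = 0.577 and 0.173). These genes share sequence, 38.5% of the 31-base stretches of Tnfrsf22 and 28.5% of those of Tnfrsf23, so that the split of reads between them is uncertain. Tnfrsf26 ranged from 0 to 0.273 CPM in naïve pools, from 6.25 to 6.83 CPM in young injured pools and from 11.2 to 16.8 CPM in middle-aged injured pools. It was higher by log2 5.02 ± 0.39 in young mice (adjusted p = 3.49e-07) and at least 159-fold higher in middle-aged mice (adjusted p = 1.5e-08).

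**Figure D4:**
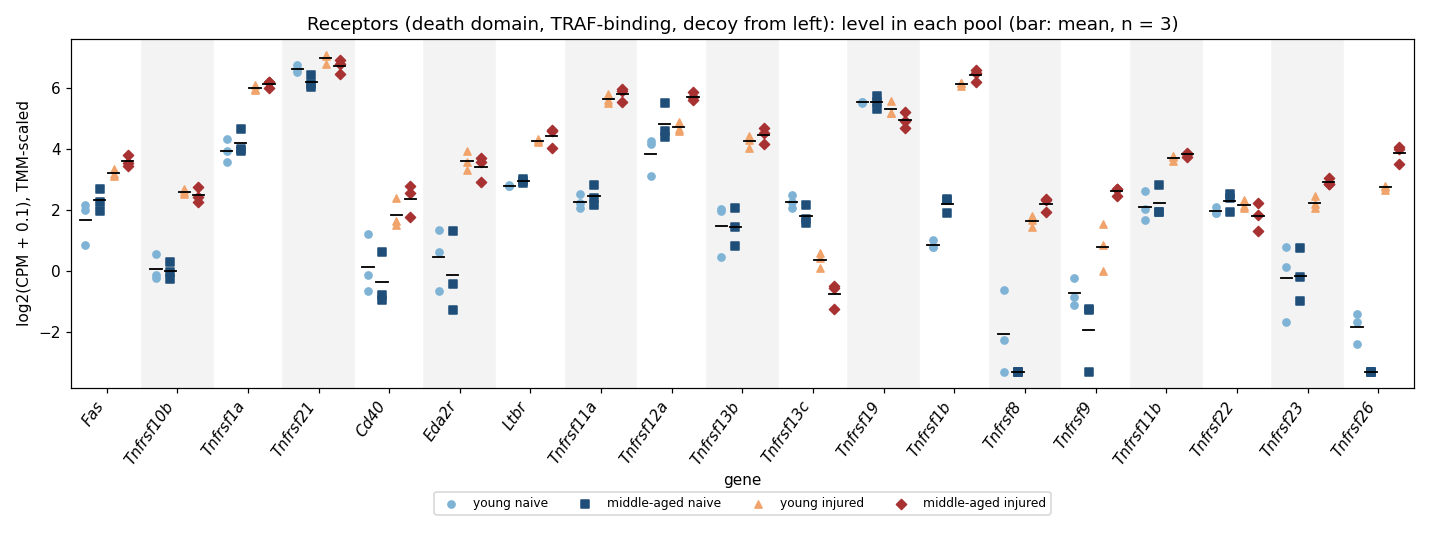
Level of each of the 19 tested receptors (x axis, ordered as death-domain, TRAF-binding and decoy receptors) as log2 of TMM-scaled CPM plus 0.1 (y axis), with a point per pool and a bar at the mean of the 3 pools in each of the 4 groups. Tnfrsf21 and Tnfrsf19 are high in all 4 groups, Tnfrsf1b moves from at most 5.04 CPM in naïve pools to 66.9 CPM or more in injured pools, and Tnfrsf13c falls.

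Levels were compared between genes per kilobase of exon. In young naïve pools Tnfrsf21 was highest, at 24.1 ± 2.12 CPM per kb (SD, n = 3), and did not overlap Tnfrsf19, at 9.73 ± 0.143 CPM per kb. Tnfrsf19, Tnfrsf12a and Tnfrsf1a followed with overlapping pools. In young injured pools the order was Tnfrsf21 (30.9 ± 3.3 CPM per kb), Tnfrsf1a (24.8 ± 1.49), Tnfrsf1b (18.3 ± 0.661) and Tnfrsf12a (13.5 ± 1.49), with no overlap between neighbours. In middle-aged naïve pools Tnfrsf21 (17.8 ± 2.58 CPM per kb) and Tnfrsf12a (15.6 ± 6.98) overlapped. In middle-aged injured pools Tnfrsf12a, Tnfrsf1a, Tnfrsf21 and Tnfrsf1b lay between 27.2 and 22.7 CPM per kb, each overlapping the next, and all 4 were above the fifth gene, Tnfrsf11a, at 9.45 ± 1.44 CPM per kb. Tnf was at 0.659 ± 0.11 CPM per kb in young injured and 0.966 ± 0.421 CPM per kb in middle-aged injured pools, and the highest ligand per kb was Tnfsf9, at 5.83 ± 2.15 and 8.11 ± 2.23 CPM per kb.

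Ligands and receptors were also set side by side as 22 known pairs. In 8 pairs both partners were higher at both ages: Tnf with Tnfrsf1a and with Tnfrsf1b, Tnfsf8 with Tnfrsf8, Tnfsf9 with Tnfrsf9, Tnfsf11 with Tnfrsf11a and with Tnfrsf11b, Tnfsf12 with Tnfrsf12a, and Tnfsf13b with Tnfrsf13b. In 6 pairs the receptor was higher while the ligand had too few counts to be tested, as for Fasl and Fas or Cd40lg and Cd40. For Tnfsf10 and Tnfrsf10b the ligand was tested and not called. Tnfsf13b and Tnfrsf13c moved in opposite directions, and in the other 6 pairs neither partner was tested. Of the 8 pairs, 7 hold a member that reached the filter on low counts only through injured pools, so that these counts are a description, and many pairs share a gene.

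Age alone had few called effects. Among naïve mice, 1 of the 27 genes was called, against 3.8% of all genes, and 7 had an unadjusted p under 0.05, as did 18.3% of all genes. The called gene was Tnfrsf1b, which was 2.62-fold higher in middle-aged naïve mice (log2 1.39 ± 0.21, adjusted p = 0.00235), with all 3 middle-aged pools above all 3 young pools. The call was lost when only the 6 naïve pools were fitted (log2 1.40, adjusted p = 0.187). Of the 8 pan-myeloid markers, 6 were higher in middle-aged naïve mice, with summed levels of 157 to 225 CPM against 99.9 to 134 CPM in young naïve mice, while 5 of 8 oligodendrocyte markers were lower. The part of these markers in the Tnfrsf1b difference was not tested. Tnfsf13os (log2 1.54 ± 0.42, adjusted p = 0.0593) and Tnfrsf12a (log2 0.99 ± 0.30, adjusted p = 0.0889) did not pass in edgeR, and both passed in DESeq2 (adjusted p = 0.0096 and 0.0215), which called 3 of the 27 and 7.15% of all genes.

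Among injured mice, edgeR called 0 of the 27 genes for age, against 1.15% of all genes, while 8 had an unadjusted p under 0.05, against 9.62% of all genes. DESeq2 called 3, against 3.07%. The 3 were Tnfrsf26 (log2 1.15 ± 0.25 in edgeR, adjusted p = 0.0511, and 0.00283 in DESeq2), Tnfrsf9 (log2 1.73 ± 0.48, adjusted p = 0.118 and 0.0127) and Tnfrsf12a (log2 1.01 ± 0.29, adjusted p = 0.134 and 0.0276). In each of them the 3 middle-aged pools lay above the 3 young pools. Of 8 oligodendrocyte markers, 7 were lower in middle-aged injured pools than in young ones, with summed levels of 8438 to 13067 CPM against 19345 to 21715 CPM. Of 6 fibroblast and pericyte markers, 2 were lower, with 468 to 673 CPM against 803 to 1190 CPM. The part of these markers in the age differences was not tested. For the difference of injury effects between ages, edgeR called 0 of 27 and 0.139% of all genes, 4 had an unadjusted p under 0.05, against 9.92% of all genes, and DESeq2 called 2, Tnfrsf1b and Tnfrsf26, against 1.86%. The genes called for injury at a single age, Tnfrsf19 and Tnfrsf21, are thus not shown to differ between ages.

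Downstream of the receptors, 49 adaptor, NF-kappaB, ubiquitin, death and shedding genes were listed and all were tested. In young mice 24 were higher, 1 was lower (Cyld) and 24 did not pass, with a median log2 fold change of 0.66, beside 28.3% higher and 26.3% lower among all genes tested. In middle-aged mice 29 were higher, 2 were lower (Cradd and Tab1) and 18 did not pass, with a median of 0.83, beside 29.2% and 29.3%. In the list of the death arm, 7 of 7 were higher at both ages. For age, 1 of the 49 was higher and 1 lower in naïve mice and 0 were called in injured mice by edgeR, beside 3.8% and 1.15% of all genes, so that nothing is read from these counts.

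In the death arm, the largest changes were those of Ripk3, the kinase that starts necroptosis (log2 5.19 ± 0.76 in young and 4.31 ± 0.69 in middle-aged mice), Mlkl, its pore-forming target (3.98 ± 0.45 and 3.43 ± 0.42), and Casp8, the initiator caspase that restrains necroptosis (3.49 ± 0.38 and 3.53 ± 0.37). Ripk3 rose from 0.151 ± 0.262 CPM (SD, n = 3) in young naïve to 6.16 ± 1.48 CPM in young injured pools, and Casp8 from 4.49 ± 3.11 to 51.1 ± 1.91 CPM. The smallest were those of Bid, a target of Casp8 (log2 0.66 ± 0.16 and 1.21 ± 0.16), and Cflar, an inhibitor of Casp8 (1.37 ± 0.12 and 1.41 ± 0.12). Genes that promote death and a gene that restrains it were thus both higher.

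Among the receptor adaptors, 3 of 10 were higher in young mice. In middle-aged mice 3 were higher and 1 lower. These shares are near those of all genes, 28.3% and 29.2% higher. Ripk1, the kinase at the fork between survival and death, rose by log2 2.73 ± 0.23 and 2.87 ± 0.23, and Traf5 by 1.49 ± 0.39 and 2.11 ± 0.41. In the NF-kappaB arm, 5 of 16 were higher in young mice, also near the share of all genes. In middle-aged mice 10 were higher and 1 lower, beside 29.2% and 29.3% of all genes. The 5 called at both ages were Map3k14, the kinase of the noncanonical route (log2 2.56 ± 0.32 and 1.54 ± 0.29), Rel (1.96 ± 0.26 and 2.37 ± 0.26), Nfkb1 (1.42 ± 0.12 and 1.17 ± 0.12), the inhibitor Nfkbia (0.90 ± 0.22 and 1.23 ± 0.22) and Rela (0.46 ± 0.13 and 0.34 ± 0.13).

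Of the 12 ubiquitin editing genes and brakes, 6 were higher in young mice, where 1 was lower, and 6 in middle-aged mice. For this list and the shedding genes below, the shares of all genes were 28.3% higher and 26.3% lower in young mice. In middle-aged mice these shares were 29.2% and 29.3%. Tnfaip3 (A20), a brake on NF-kappaB that NF-kappaB itself induces, rose by log2 3.77 ± 0.27 and 3.50 ± 0.26. Birc3 rose by 2.46 ± 0.21 and 2.01 ± 0.20, Tnip2 by 1.61 ± 0.29 and 0.83 ± 0.27, and Rnf31 by 0.71 ± 0.26 and 0.65 ± 0.26. Tnip3 had 0 CPM in every naïve pool and 0.429 ± 0.126 and 0.999 ± 0.193 CPM in young and middle-aged injured pools. Of the 4 shedding genes, 3 were higher at both ages: Rhbdf2, the partner that brings Adam17 to the cell surface (log2 4.54 ± 0.33 and 3.58 ± 0.30), Adam17, the protease that releases Tnf and its receptors (1.37 ± 0.12 and 2.05 ± 0.12), and Adam10 (1.02 ± 0.12 and 1.05 ± 0.12). Timp3, an inhibitor of Adam17, did not pass (0.43 ± 0.19 and 0.12 ± 0.19).

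**Figure D5:**
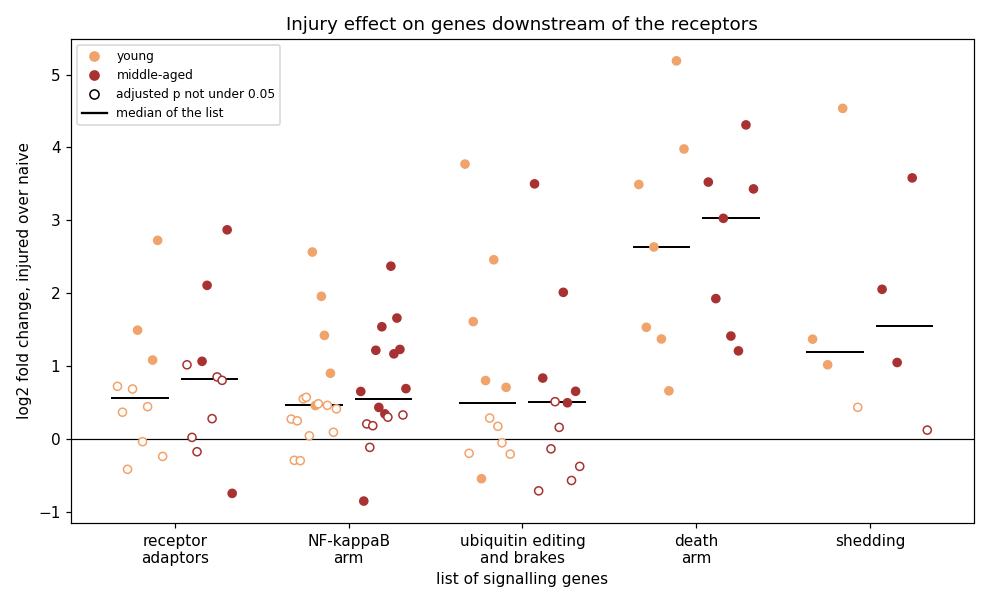
Log2 fold change of injured over naïve pools (y axis) for the genes of 5 signalling lists (x axis) in young and middle-aged mice, with a point per gene, filled where the adjusted threshold was passed, and a black bar at the median of the list. Tnip3 enters the median and is not drawn, having 0 counts in naïve pools. Every death-arm point is filled and above 0 at both ages.

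A further 3 genes that belong to the superfamilies without fitting the symbol rule were listed as well. Ngfr, a death-domain receptor of neurotrophins, was higher in young mice (log2 1.93 ± 0.35, adjusted p = 0.000337) and did not pass in middle-aged mice (0.46 ± 0.34, adjusted p = 0.253). Eda, the ectodysplasin ligand, was lower in middle-aged mice (log2 -1.46 ± 0.34, adjusted p = 0.00188) and did not pass in young mice (-0.74 ± 0.33, adjusted p = 0.0726). The difference of injury effects between ages did not pass for Ngfr (log2 -1.46, adjusted p = 0.282) or for Eda (log2 -0.73, adjusted p = 0.672). Relt did not pass at either age. Levels of 4 Schwann cell markers summed to between 0.43 and 1.89 CPM in naïve pools and to between 5.87 and 36.7 CPM in injured pools.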

How the data were processed

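The data were 12 RNA sequencing libraries, each from laser-captured white matter pooled from 5 mice. Library building included a REPLI-g amplification step. Per the labels and the methods, the authors checked reads with FastQC 0.11.4, mapped them to GRCm38 with TopHat 2.0.10 (internal aligner bowtie 1.1.2), ran featureCounts and deposited its unnormalized count for each gene. The annotation release, strand setting and treatment of shared reads are not given in the sources used here. Amplification can raise the spread of low counts.

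The main test used edgeR 4.0.16 in R 4.3.3, although the study's methods name DESeq2, which was run as an alternative (1.42.0). Libraries were scaled by TMM, low counts were removed with filterByExpr (minimum count 10), and 15866 genes were tested by the quasi-likelihood F test, with 1 coefficient per group and all 12 pools. Benjamini-Hochberg adjustment ran over these genes, with a threshold of 0.05. SE was computed from each log2 fold change and its F statistic, as their ratio after taking the root of F. CPM used TMM-scaled totals, and positions and exon lengths came from GENCODE on GRCm38. Folds against groups with 0 counts used a limit of 3 counts over the group, and those with 1 to 3 counts the ratio of summed counts.

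Values in every pool are given for Tnf, Tnfrsf1a, Tnfrsf1b, genes called for age or for the difference of injury effects, and genes called for injury with a mean log2 CPM of at least 1. Other called genes get ranges, and genes of a signalling list are named where called at both ages, up to 3 highest and 3 lowest. Values of 1 gene that this rule names are not reported here. The genes and lists were chosen with earlier results of these data known. Alternatives were other scalings, filters, DESeq2, fits of 6 pools, a replicate block and each pool left out. Of these steps, the edgeR fit and its comparisons were tested on simulated counts.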

Additional observations from a re-analysis of the deposited data

How the results depend on the processing

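The counts of genes changed by injury stayed within 1.5 times, between 20 and 26 higher in young and between 22 and 27 higher in middle-aged mice over all alternatives, with 1 and 2 lower. The 65 single-gene results were refitted 1294 times. The direction and side of the threshold held in 1232 fits, a call was lost in 15 and gained in 46, and the sign changed in 1, that of the uncalled Tnfsf10 in middle-aged mice without middle-aged naïve pool 2 (log2 -0.19, up to 0.45 with another pool left out). A further 49 uncalled age and interaction differences were refitted 958 times, and 66 fits gave another sign. These 49 were set apart because no alternative called them.

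Counts for age depended on the processing. Among naïve mice, where 1 was called higher, DESeq2 gave 3, no filter on low counts 4, only the 6 pools compared 0 and the replicate block 2. Leaving out a pool gave 1 to 3 higher and 0 to 1 lower (3 without middle-aged naïve pool 1). Among injured mice, where 0 were called higher, DESeq2 gave 3, no filter 4 and the 6 pools 4, and leaving out a pool gave 0 to 2 (2 without middle-aged naïve pool 1 or 2). For the difference of injury effects, DESeq2 gave 1 higher and 1 lower and no filter 1 higher, against 0 and 0. The cause was not tested. The difference between injured and naïve mice in the log2 ratio of Tnfrsf1b to Tnfrsf1a lay between 2.69 and 2.93 with a pool left out.

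Scaling by library totals alone moved the median of all genes to 0.20 for injury in young mice and to -0.13 for the difference of injury effects, and changed no direction of a gene called for injury. Same-numbered pools of different groups had correlations of deviations from -0.113 to 0.153, and 5 of 12 pools correlated best with their own number. No pairing by number was thus seen, although this check cannot exclude one. The replicate block added Tnfsf13os to the age calls in naïve mice (adjusted p = 0.0462). Depth limits what can be said of the 17 genes with too few counts for the test.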
